A study of Homo sapiens with 2 samples.

Results

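Small nuclear RNAs (snRNAs) were measured in ribosome profiling libraries of HEK293T, an established cell line that came from embryonic kidney tissue of human origin. The genes described here are the 74 rows whose biotype in the count table was snRNA and whose counts, summed over both libraries, came to 20 or more, out of 1910 snRNA rows and 61554 rows in all. By name they fell into 26 U1, 32 U2, 2 U4, 7 U5, 3 U6, 1 U12 and 2 U7 genes, and RNU4ATAC, which the names put with U4atac and U6atac. The summed count chose these genes, so the level of a gene over both libraries is a description and carries no weight as a result. The ratio between the libraries was not used in the choice. The U7 RNA works in the processing of histone messages and not in splicing, so the set is wider than the spliceosome.

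The study compared 2 cultures, each of wild-type genotype per the labels. RiboW is the library of cells that received the plasmid pEGFP-mCherry-T2A-EGFP-151TCG, a fluorescent reporter, and is called "with reporter" below. RiboWo is the library of cells without it. Both cultures were transfected with the TetRS plasmid pCMV-Nes--chPylRSIPYE (TetRS), which also carries 12 copies of a U6-CM15CGA tRNA cassette, and both were kept with the compound TetBu. Cells were grown in dishes of 15 cm, given 30 h for expression and treated with cycloheximide at 0.1 mg/mL for 1 min. Reads were 50 nt long. A culture with neither plasmid was not analysed here, so any effect of TetRS, of its tRNA or of the U6 cassettes is shared by both libraries. Each group had 1 library from 1 culture, so no test across replicates exists, no p-value is given, and every difference is one between these libraries.

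Splicing is carried out by RNA and protein particles named after their snRNA. U1 pairs with the donor splice site, U2 pairs with the branch point, and U4, U5 and U6 arrive together, after which U6 replaces U1 at the donor site and pairs with U2 to form the catalytic centre. U5 holds the exon ends in place. A rare class of introns uses U11, U12, U4atac and U6atac in place of U1, U2, U4 and U6. RNA polymerase II transcribes the snRNA genes apart from U6 and U6atac, which are transcribed by RNA polymerase III. The human genome holds many copies of each snRNA, most of them pseudogenes, and a symbol that ends in P marks a locus named as a pseudogene. The symbols RNVU1 mark variant U1 genes, and those among the 74 genes all lie on chromosome 1. Because snRNAs are not translated, a count here is a read assigned to the gene and not a ribosome on it.

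The libraries held 2519301 counts with the reporter and 3151403 without. Scaling between them decides the sign of small ratios. The scaling used below was the trimmed mean of M-values (TMM) over all rows, and scaling by total counts instead raises every log2 ratio by 0.46. Annotated miRNA genes with at least 20 counts took 12.4% of counts with the reporter and 30.4% without, and the reporter row itself had 271843 counts against 399. TetRS, carried by both cultures, had 30286 counts with the reporter and 59723 without. Genes that HEK293 cells are known for were present, with 8 of 8 markers detected and 382 counts with the reporter against 275 without it. VIM had the most of these, 148 against 131. The fewest were for KRT8 (3 against 4), PAX2 (2 against 4) and LHX1 (5 against 7), which unlike the others had fewer with the reporter. Markers of other cell types were few, with 5 against 20 counts over 5 leukocyte genes, 17 against 55 over 5 fibroblast genes and 0 against 16 over 3 erythroid and serum genes. PTPRC and HBA1 were at 0 in both libraries. The part of these differences in the snRNA values was not tested.

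The 74 snRNA genes together held 66782 counts with the reporter, or 2.65% of the library (exact binomial 95% interval 2.63 to 2.67%). Without the reporter they held 69440 counts, or 2.20% (2.19 to 2.22%). On the TMM scale the pooled log2 ratio, with over without reporter, was -0.19 (95% counting interval -0.20 to -0.17), and under total counts it was 0.27, so its sign follows the scaling. The sign also followed 1 gene: without RNU5B-1 the pooled log2 ratio was 0.19 (0.17 to 0.22). All intervals cover counting error only, and PCR copies of 1 molecule, which cannot be told apart here, make them too narrow. The median log2 ratio of the 74 genes was 0.20, against 0.04 over all 7023 rows with at least 20 counts. On the same scale the median was 0.45 over 100 snoRNA genes, 0.22 over 10 scaRNA genes, -0.83 over 187 miRNA genes and 0.06 over 6296 protein-coding genes.

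**Figure D1:**
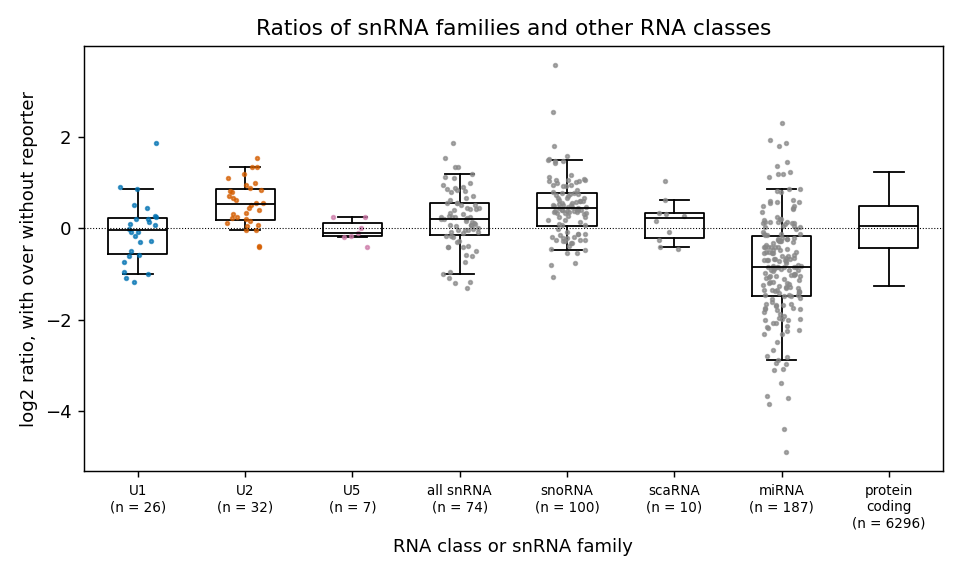
The vertical axis is the log2 ratio of TMM-scaled counts, with over without reporter, for genes whose summed count reached 20. Boxes show the quartiles and the median, whiskers the central 90% of genes, and points single genes of every class but the protein-coding one, where genes at 0 in a library enter the box and are not drawn. The U2 genes have a median of 0.53 and the miRNA genes one of -0.83, and total-count scaling would raise every value by 0.46.

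A gene was called higher or lower where its scaled ratio was at least 2-fold and its counting interval excluded 0. By this rule 7 of the 74 snRNA genes were higher with the reporter, which is 9.46%, and 4 were lower, which is 5.41%. Over all measured rows the same rule called 6.83% higher and 7.38% lower, so the number of calls among snRNA genes was near that of the table as a whole. In either direction it was 14.9% of snRNA genes against 14.2% of all rows. Among the 43 snRNA genes with at least 100 counts, 2 were higher and 1 was lower, or 6.98% together, against 7.06% of all 1389 such rows, of which 2.95% were higher and 4.1% lower. The counting interval lay above 0 in 23 of the 74 genes and below 0 in 11, or 31.1% and 14.9%, against 13.2% and 11.8% of all rows. With at least 100 counts it lay above 0 in 41.9% of snRNA genes, against 26.7% of all such rows. It lay below 0 in 14.0% against 19.1%, the opposite order to that over all 74 genes. Under total counts 20 snRNA genes were higher, or 27.0% against 19.9% of all rows, and 0 were lower, against 2.55% of all rows. The genes called higher were RNU2-52P, RNU2-41P, RNU2-26P, RNU2-37P, RNU2-17P, RNU4ATAC and RNU1-140P, and those called lower were RNU7-3P, RNU1-52P, RNU1-94P and RNU4-1. All 74 genes had counts in both libraries.

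The make-up of the class does not depend on the scaling between libraries, and it differed between them. U2 genes held 27.4% of snRNA counts with the reporter (27.1 to 27.8%) and 18.4% without (18.2 to 18.7%). U5 genes held 66.1% with the reporter (65.8 to 66.5%) and 75.5% without (75.2 to 75.9%). The exact intervals of the 2 libraries did not overlap for either family. U1 genes held 5.68% with the reporter (5.50 to 5.86%) and 5.35% without (5.18 to 5.52%). The other families were each below 0.3% in both libraries. Since shares sum to a whole, the U2 and U5 values are not independent. With RNU5B-1 left out of the class, U2 held 64.6% against 56.5%, U5 20.3% against 25.1% and U1 13.4% against 16.4%, so the order of the U1 shares turns without that gene.

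**Figure D2:**
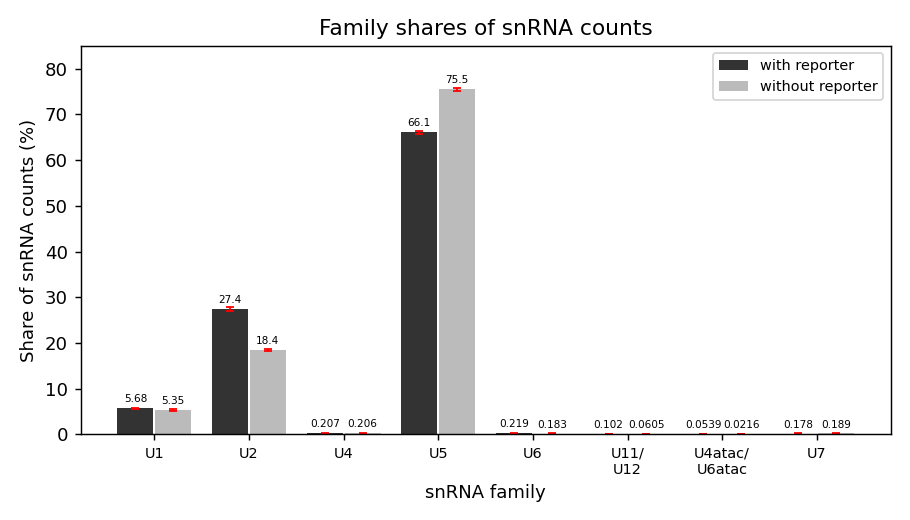
Bars give the share of snRNA counts, in percent, held by each family, with the reporter (dark) and without it (light). Red bars are exact 95% binomial intervals, which cover counting error only. U2 is at 27.4% against 18.4% and U5 at 66.1% against 75.5%.

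RNU5B-1, the gene of the U5B form, was the most counted snRNA and the tenth row of the whole table by summed count (chromosome 15, 65304677 to 65304792, plus strand). This gene had 38419 counts with the reporter and 46758 without, which is 57.5% and 67.3% of the snRNA counts. The log2 ratio was -0.42 (-0.44 to -0.40), and under total counts it would be 0.04. The median of all rows, 0.04 on the TMM scale, moves by the same amount under total counts, so the gene lay below it under either. RNU5A-1 lies 8510 bases away on the same strand and had 3076 counts with the reporter against 3126 without it. Its log2 ratio was -0.16 (-0.23 to -0.08), so the 2 neighbouring U5 genes had intervals that did not overlap. Per length, in the RPKM values of the authors, RNU5B-1 stood 12.5 times above RNU5A-1 with the reporter and 15.0 times above it without.

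None of the 7 U5 genes met the rule for a call. Over all measured rows the rule called 14.2%, and 7 genes are too few to be set apart from that share. RNU5F-1, on chromosome 1, had 1606 counts with the reporter and 1663 without (log2 ratio -0.18, -0.28 to -0.08). RNU5D-1, 9152 bases from it on the same strand, had 159 against 144 (0.01, -0.32 to 0.35). These neighbouring U5 genes differed 10.0-fold in RPKM with the reporter and 11.4-fold without, while their ratios between libraries had overlapping intervals. RNU5E-4P, named as a pseudogene, had 487 counts with the reporter against 375 without it (0.24, 0.05 to 0.44), an interval that lies apart from those of RNU5A-1 and RNU5F-1. RNU5E-1, the gene it is named after, lies 1536 bases away on the opposite strand and was listed at 0 in both libraries. RNU5A-8P had 360 against 352 counts (-0.10) and RNU5E-10P had 56 against 43 (0.25, -0.35 to 0.86). Without RNU5B-1 the 6 remaining U5 genes pooled to -0.12 (-0.17 to -0.07), and all 7 U5 genes pooled to -0.38, which total counts turn to 0.07.

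U2 was the family with the most members. Of its 32 genes, 28 had a ratio above 0 and 4 below. This is 87.5% above 0, against 52.4% of all measured rows and 75% of the 100 snoRNA genes. With total counts all 32 U2 genes lay above 0, as did all 7 U5 genes and 18 of 26 U1 genes. The median log2 ratio of the 32 U2 genes was 0.53. Pooled, the U2 genes had 18320 counts with the reporter and 12807 without, a log2 ratio of 0.38 (0.35 to 0.42). It ran from 0.37 with TMM over protein-coding rows to 0.84 with total counts. A change of scaling moves every row by the same amount, so this range is no separate support. The median of all rows moved with it, from 0.04 with TMM to 0.50 with total counts. The interval of 17 of the 32 lay above 0 and that of 1 below. This is 53.1% above, where 13.2% of all measured rows and 53% of the 100 snoRNA genes had such an interval. Among the 22 U2 genes with at least 100 counts the interval lay above 0 in 14, or 63.6%, against 26.7% of all rows with at least 100 counts, and below 0 in 1, or 4.55% against 19.1%. The 2-fold rule called 5 U2 genes higher, or 15.6% against the 6.83% of all rows, and 0 lower. Of the 100 snoRNA genes it called 17% higher and 0 lower.

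U2 is known to be repeated in an array on chromosome 17, and the rows of that array had all their counts in a single row. The table listed 13 rows there, RNU2-1 and 12 named only U2, between 43233787 and 43300231, all on the minus strand. Of these, 12 were listed at 0 in both libraries and 1 (43290291 to 43290481) had 3249 counts with the reporter and 2851 without. Its log2 ratio was 0.06 (-0.02 to 0.13), the nearest to 0 among U2 genes with over 1000 counts except RNU2-64P. The sources used here do not give the assignment of reads that match several copies. A row at 0 is thus no measure of that copy, and the counts of any copy may include reads of others.

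RNU2-29P, on chromosome 7, followed with 3023 counts with the reporter and 2336 without (0.24, 0.16 to 0.32). RNU2-6P, on chromosome 13, had 2359 against 1231 (0.81, 0.71 to 0.91). RNU2-59P, on chromosome 10, had 1613 against 1003 (0.55, 0.44 to 0.67). These well-counted U2 loci had intervals that did not overlap one another, although all are named as copies of U2. RNU2-14P had 1353 counts with the reporter and 1072 without (0.20, 0.09 to 0.32). RNU2-8P had 943 against 485 (0.83, 0.67 to 0.99). RNU2-3P had 894 against 439 (0.89, 0.73 to 1.06). Thus RNU2-8P and RNU2-3P lay near RNU2-6P, and RNU2-14P near RNU2-29P. RNU2-64P had 678 against 629 (-0.02, -0.18 to 0.13), RNU2-50P had 647 against 527 (0.16) and RNU2-68P, on chromosome X, had 704 against 358 (0.84, 0.66 to 1.03).

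The U2 genes of intermediate count lay on both sides of 0 as well. RNU2-52P (chromosome 20, 41024205 to 41024394) had 505 counts with the reporter and 201 without (1.20, 0.96 to 1.44). RNU2-41P, on chromosome 2, had 338 against 143 (1.11, 0.82 to 1.40). They were the only snRNA genes with at least 100 counts that were called higher. In contrast RNU2-15P had 457 against 386 counts (0.11) and RNU2-56P, also on chromosome 20, had 427 against 400 (-0.04). RNU2-32P, on chromosome 17 outside the array, had 213 against 137 (0.50, 0.19 to 0.82) and RNU2-36P had 103 against 125 (-0.41, -0.80 to -0.02), the lowest ratio of the family. The remaining U2 genes with at least 100 counts lay between RNU2-5P at 0.08 and RNU2-48P at 0.99. They were RNU2-69P (0.45), RNU2-39P (0.61), RNU2-7P (0.95) and the row named U2 on chromosome 4 (0.34). Across the 22 genes the log2 ratios had an SD of 0.44, where the median half-width of their counting intervals was 0.20. The interval lay wholly above the pooled U2 ratio in 9 of the 22 and wholly below it in 8.

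The other U2 genes called higher had fewer reads. RNU2-26P, on chromosome X, had 67 counts with the reporter and 21 without (1.54, 0.82 to 2.32), the highest ratio of the family. RNU2-37P had 39 against 14 (1.35, 0.43 to 2.34) and RNU2-17P had 28 against 10 (1.35, 0.27 to 2.56). At this depth their intervals were wide, and the upper and lower bounds differed by more than 1 on the log2 scale. RNU2-37P lies inside RUVBL1, a coding gene of the same strand that had more counts (82 against 57). Of the 32 U2 genes, 30 carried pseudogene symbols, and these held 81.9% of U2 counts with the reporter and 77.4% without. The 21 with a listed length within 3 bases of the 191 of RNU2-1 had a median log2 ratio of 0.55, and the 11 of other lengths had 0.45. The 20 that overlapped another annotated row had a median of 0.50, and the 12 that did not had 0.61. The family was thus above 0 in its median whichever of these groups was taken, and no difference between the groups was tested.

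**Figure D3:**
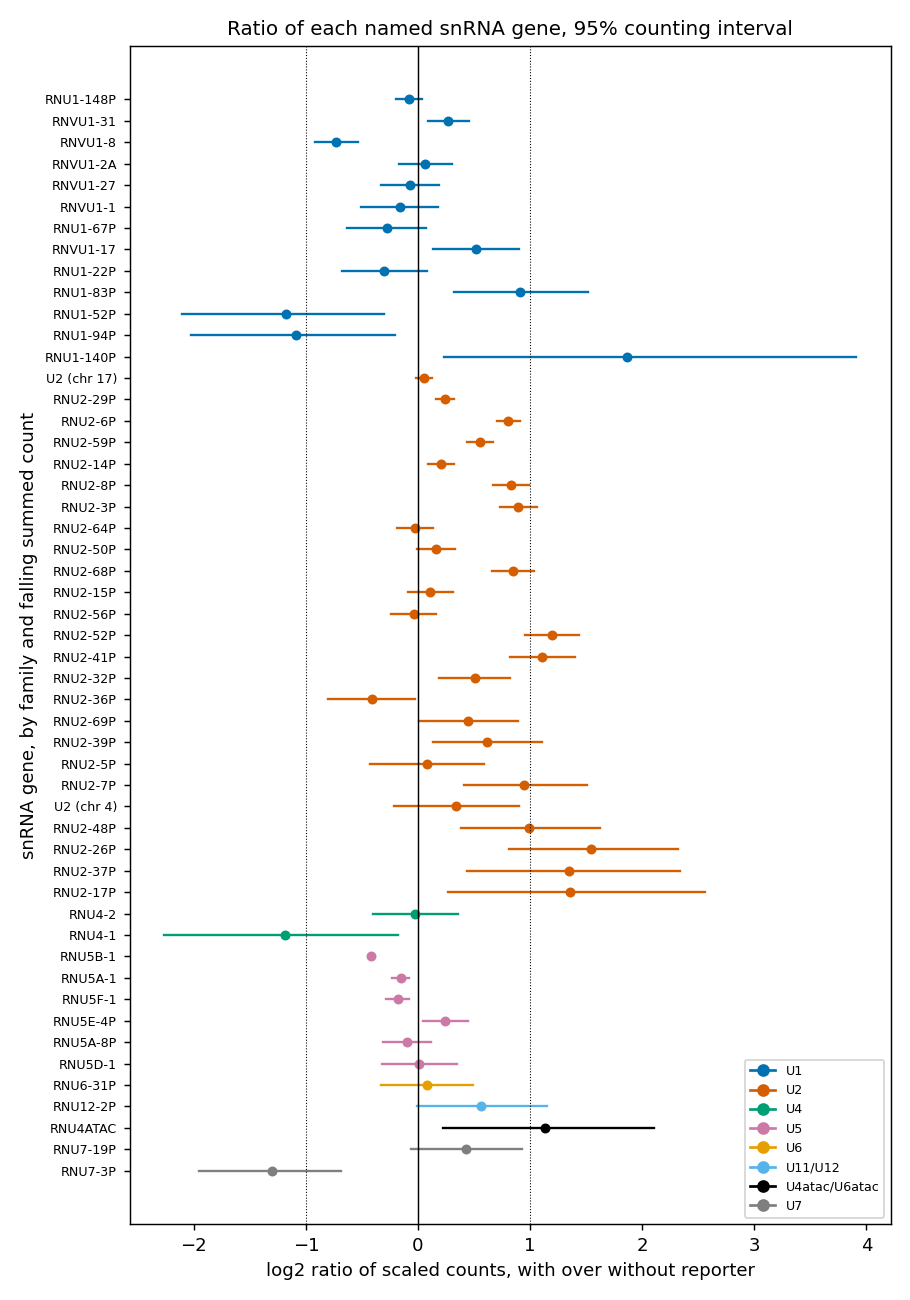
Points give the log2 ratio of TMM-scaled counts, with over without reporter, of the 51 snRNA genes that had at least 100 counts or were called, grouped by family and ordered by summed count. Bars are exact 95% counting intervals and dotted lines mark 2-fold. The U2 genes run from -0.41 for RNU2-36P to 1.54 for RNU2-26P, and total counts would move every point to the right by 0.46.

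U1 genes were divided evenly about 0 on the TMM scale, with 12 of 26 above and 14 below. They had 3792 counts with the reporter and 3714 without, a pooled log2 ratio of -0.10 (-0.17 to -0.04) that total counts turn to 0.35. The standard U1 genes RNU1-1, RNU1-2, RNU1-3 and RNU1-4 were all listed at 0 in both libraries. A count of 0 allows up to 3 reads, or 0.000119% of the library with the reporter and 9.52e-05% of the library without it, for reads that were assigned at all. The counts of the family came from 7 variant U1 genes and 19 loci with pseudogene symbols. The variant genes had a pooled log2 ratio of -0.10 and the pseudogene-named loci also one of -0.10, with intervals of -0.19 to -0.01 and -0.20 to -0.01.

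The most counted U1 locus was RNU1-148P, with 1246 counts with the reporter and 1201 without (-0.08, -0.19 to 0.04). RNVU1-31 had 594 against 449 (0.27, 0.09 to 0.45). RNVU1-8 had 376 against 569 (-0.73, -0.92 to -0.54). The last 2 are both variant U1 genes of chromosome 1, and their intervals lay on opposite sides of 0. RNVU1-2A had 321 against 280 (0.06), RNVU1-27 had 259 against 248 (-0.07) and RNVU1-1 had 142 against 145 (-0.16). RNVU1-17 had 149 against 95 (0.52, 0.14 to 0.90), and RNVU1-15 had 17 against 31 (log2 interval -1.94 to -0.10), just short of the 2-fold call. The variant genes therefore spread with an SD of 0.54 around a median of -0.07. Of 27 variant genes in the table, 9 were at 0 in both libraries.

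Among the U1 pseudogene-named loci, RNU1-67P had 131 counts with the reporter and 145 without (-0.28), RNU1-22P had 114 against 128 (-0.30) and RNU1-83P had 76 against 37 (0.91, 0.32 to 1.51). The calls in this family came from loci with few reads. RNU1-52P had 17 against 35 (-1.17, -2.10 to -0.30) and RNU1-94P had 17 against 33 (-1.09, -2.03 to -0.20), both called lower. RNU1-140P had 16 against 4 (1.87, 0.24 to 3.91), called higher, and it stood at the minimum of 20 counts. At that minimum also stood RNU1-21P, with 12 against 8 counts, while RNU2-49P with 11 against 8 and RNU1-14P with 8 against 11 fell just outside it.

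**Figure D4:**
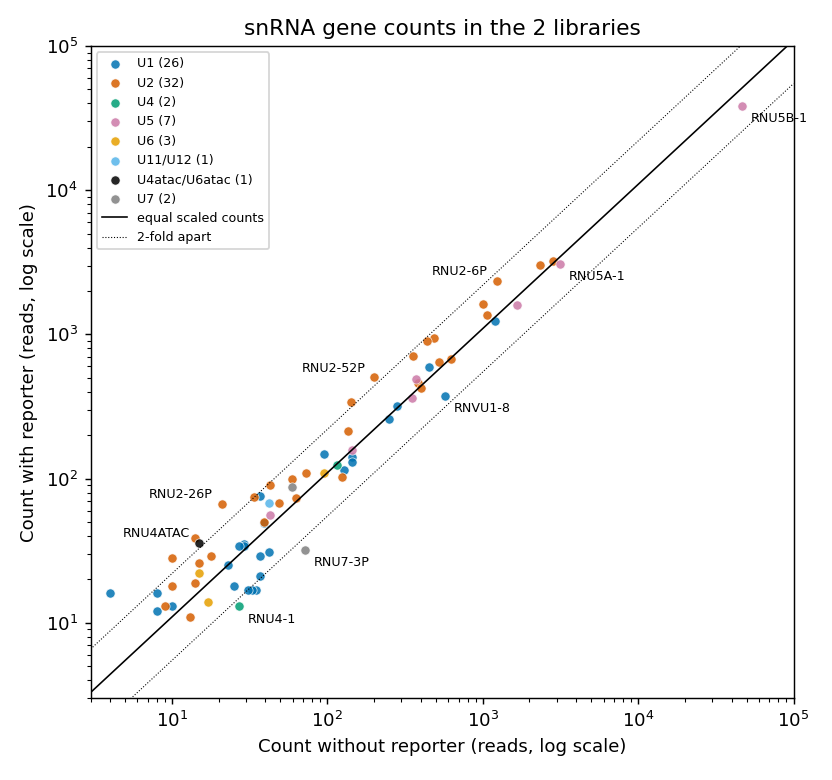
Each point is 1 of the 74 snRNA genes, with its count with the reporter on the vertical axis and without it on the horizontal axis, both on log scales. The solid line marks equal TMM-scaled counts and dotted lines mark 2-fold. RNU5B-1, at 38419 against 46758 counts, stands apart from all others, and total counts would place the solid line lower by 0.46 in log2.

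The U4 and U6 rows had few counts. Their RNAs act in the same particle as U5. How reads that match several copies were assigned is not known, so these counts do not measure the levels of U4 and U6 RNA. U4 is carried by RNU4-2 and RNU4-1, which lie 1193 bases apart on chromosome 12. RNU4-2 had 125 counts with the reporter and 116 without (-0.02, -0.40 to 0.35). RNU4-1 had 13 against 27 (-1.19, -2.26 to -0.18), which met the rule for lower. The intervals of the 2 genes overlapped. Of the 97 U4 rows in the table, 83 were at 0 in both libraries.

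U6 had 1313 rows in the table, more than any other family, and 1262 of them were at 0 in both libraries. RNU6-31P, on chromosome 2, had 110 counts with the reporter and 95 without (0.08, -0.33 to 0.49). RNU6-1, a U6 gene of chromosome 15, had 22 against 15 (0.42, -0.59 to 1.47) and RNU6-738P had 14 against 17 (-0.41, -1.54 to 0.70). All these intervals included 0. RNU6-2, RNU6-7 and RNU6-8 were at 0 in both libraries and RNU6-9 had 1 count in each. The 3 U6 members pooled to 146 counts against 127 (0.07, -0.28 to 0.42). Both cultures carried U6 promoters on the TetRS plasmid, so the comparison holds no culture without them.

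The members included 2 rows named for snRNAs of the minor spliceosome, of which RNU12-2P is named as a pseudogene. RNU4ATAC, the gene of U4atac, had 36 counts with the reporter and 15 without (chromosome 2, 121530881 to 121531007). Its log2 ratio was 1.13 (0.23 to 2.11), a 2.19-fold difference that met the rule for higher. It lies inside CLASP1, a coding gene of the opposite strand with 39 counts against 44, and inside CLASP1-AS1, which was at 0. RNU12-2P, on chromosome X, had 68 counts with the reporter and 42 without (0.56, -0.01 to 1.15). RNU11, RNU12 and RNU6ATAC were listed at 0 in both libraries.

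U7 pairs with histone messages to direct the cleavage that forms their end. RNU7-1, its gene, was at 0 in both libraries, and the U7 rows with at least 20 counts were RNU7-19P and RNU7-3P. They held 0.178% of snRNA counts with the reporter and 0.189% without, while all U7 rows, with no minimum, held 0.243% against 0.227%, the opposite order. RNU7-19P had 87 counts with the reporter and 59 without (0.43, -0.07 to 0.93). RNU7-3P had 32 against 72 (-1.30, -1.95 to -0.68), the lowest ratio among all 74 genes and the only call of a lower gene with at least 100 counts. Both lie inside coding genes, and these had ratios on the same side of 0. PPP4R2, which holds RNU7-19P on the same strand, had 52 against 24 counts (0.98). PPIL4, on the strand opposite to RNU7-3P, had 23 against 44 (-1.07). Among genes of other families such pairs went both ways. RNU2-59P (0.55) lies inside BTRC (-0.62), on the other side of 0, but BTRC had only 10 against 14 counts, which leaves its side uncertain. RNU2-37P (1.35) lies inside RUVBL1 (82 against 57 counts, 0.39), on the same side. Whether reads of a coding gene were counted for the snRNA row inside it was not tested.

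The position of the genes was set against other annotation. Of the 74 genes, 44 overlapped another row of the table, 34 of them a protein-coding gene, and for 28 at least 1 such row was on the same strand. In 41 of the 44 the snRNA row had more counts than any row it overlapped. RNU2-6P, for example, had 2359 against 1231 counts inside RUBCNL, which itself had 2 with the reporter and 4 without. The snRNA rows were chosen by a minimum summed count, while no minimum was set for the rows they overlapped. That choice favoured this order, which therefore does not show from which row the reads came. The median log2 ratio was 0.23 over the 44 overlapping genes and 0.11 over the 30 others. The genes lay on 21 chromosomes. RefSeq, in its GRCh38.p14 table, held 72 of them by symbol, each overlapping the position given in the files, with 56 classed as pseudogenes and 16 as snRNA genes.

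Proteins that make up the snRNPs, related LSm proteins, and proteins that make and assemble snRNAs were counted in the same libraries as messages. Of 109 listed genes 86 had at least 20 counts, and 3 were called higher and 3 lower, or 3.49% each way, against 6.69% and 6.54% of all protein-coding genes. Their median log2 ratio was 0.18, against 0.06 over all protein-coding genes. LSM6, of the ring that binds the end of U6, had 56 counts with the reporter and 14 without (1.87, 1.00 to 2.83). ZCRB1, a protein of the minor spliceosome, had 20 against 6 (1.60), and PRMT5, the methyltransferase of Sm proteins, had 34 against 14 (1.15). SNAPC4, a subunit of the complex that binds snRNA promoters, had 17 against 37 (-1.25, -2.18 to -0.39). INTS6, of the Integrator that cuts snRNA precursors, had 10 against 21 (-1.20), and BDP1, of the polymerase III machinery, had 14 against 26 (-1.03).

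By list, the 15 measured Sm and LSm genes had a median of 0.19, with LSM1 lowest at -0.67. The 34 genes of particle-specific proteins also had a median of 0.19, with ZRSR2, a minor-spliceosome protein, lowest at -1.35. ZRSR2 had 6 counts with the reporter and 14 without (-3.02 to 0.12) and was not called. The 18 genes of transcription and processing of snRNAs had a median of 0.14, with POU2F1 highest at 0.79. The 19 genes of export, assembly and import had a median of 0.04, between NCBP1, of the cap-binding complex, at -0.83 and PHAX, the snRNA export adaptor, at 1.31. PHAX had 19 counts with the reporter and 7 without (-0.004 to 2.80) and was not called.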

How the data were processed

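Both libraries were ribosome profiling libraries read as single ends of 50 nt. The deposited counts were whole numbers per gene; TopHat2 2.0.12 and HTSeq 0.9.1 are named, with no role, per the submitters' processing notes, and the sources used here do not say how strand or multiply matching reads were treated. The notes list GRCh37 and hg19, but the coordinates in the files fit GRCh38 and are printed as given. The deposited RPKM values of the authors equalled count over listed gene length and over 1 library size, 2873483 with the reporter and 2762965 without it.

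Groups were taken from the sample titles. Counts, with a minimum of 20 over both libraries, were scaled with edgeR 4.0.16 (TMM, all rows) in R 4.3.3. Each log2 ratio has an exact Clopper-Pearson interval at 95%. A call needed a 2-fold ratio and an interval excluding 0. The calling was also run on counts simulated with counting error alone. Such counts cannot show how it performs with PCR copies or differences between cultures. Python 3.11.15, numpy 2.4.6, scipy 1.17.1, pandas 2.3.3 and matplotlib 3.10.9 were used. U4atac and U6atac were kept apart from U4 and U6.

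Named were the genes with at least 100 counts, the called genes, the extremes of each family and list, and those at the minimum. The genes, lists and rules were chosen with earlier results of these data known. Alternatives were total counts, TMM over coding rows, DESeq2 1.42.0 size factors, RPKM with 0.1 added, other minimums, folds and denominators, and the omission of overlapping genes or of RNU5B-1. Sequences of snRNA genes were not used here.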

Additional observations from a re-analysis of the deposited data

How the results depend on the processing

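Of the 51 snRNA genes with at least 100 counts or a call, 33 had a ratio above 0 with TMM, 46 with total counts, 37 with DESeq2 size factors and 32 with TMM over protein-coding rows. No called gene could change sign, because the largest shift between scalings, 0.46 in log2, is smaller than the 2-fold minimum of a call. Calls of higher and lower genes, 7 and 4 as reported, were 20 and 0 with total counts, 15 and 7 at 1.5-fold, 1 and 0 at 3-fold and 3 and 1 over the 30 genes that overlap no other row, and were within 1.5 times of the reported counts under the other settings. The median log2 ratio of 0.20 was 0.66 with total counts, 0.28 with DESeq2 size factors, 0.28 from RPKM with 0.1 added, 0.16 at a minimum of 50 counts and 0.11 without overlapping genes. The pooled log2 ratio of -0.19 was 0.27 with total counts, -0.11 with DESeq2 size factors, -0.33 without overlapping genes and 0.19 without RNU5B-1. The snRNA share was 3.01% with the reporter and 2.25% without it when plasmid rows were left out of the total. It was 11.8% and 13.4%, the opposite order, when mitochondrial and miRNA genes were left out as well. The log2 ratio of shares, with over without reporter, was 0.57 for U2, with 0.19 without RNU5B-1 and 0.75 without overlapping genes. For U5 it was -0.19, with -0.31 and -0.087 in the same settings, and for U1 it was 0.09, with -0.29 and 0.23. The causes were not tested. No paired analysis was possible because each group had 1 library. Depth limits the ratios of the 31 genes, of 74, that had fewer than 100 counts.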
